A study of Mus musculus with 6 samples.

Results

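The cytosolic ribosomal protein genes encode the protein part of the ribosomes that translate nuclear mRNA. They were taken as all probe sets annotated with a single gene symbol that begins with Rpl or Rps and a digit, or is Rplp0, Rplp1, Rplp2 or Rpsa, leaving out the S6 kinase genes whose symbols begin with Rps6k. A probe set is the group of short oligonucleotides on the array that reports 1 transcript. This rule found 107 probe sets of 51 genes among the 18193 genes with a probe set of their own symbol, and each gene was represented by its brightest probe set. A filter on low signal kept 47 of the 51 genes. Some well-known members are not among them: 110 further probe sets carried a ribosomal protein symbol together with other symbols, often of pseudogenes, and 54 symbols that fit the rule, Rpl3, Rpl5, Rpl10 and Rplp1 among them, occurred only in such shared probe sets.

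RNA was measured in mouse retina at postnatal day 21, with 2 retinas pooled per sample and animals of mixed sex. There were 3 arrays of wildtype C57Bl/6 mice and 3 of ERRβ -/- knockout mice on a C57Bl/6 x Sv129 background, so genotype and strain background differ together. ERRβ, encoded by Esrrb, is an orphan nuclear receptor, and the study asked about its part in keeping rod photoreceptors alive. The labels describe neither the allele nor whether different animals went into each pool, and p-values therefore cover only the variation among these 6 arrays.

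In either group, replicates 1 and 2 had a trimmed mean signal near 500 and replicate 3 one near 150, so the arrays fall into 2 sets by scale, and comparisons were made within these sets. The brightest of 3 probe sets of the targeted gene, Esrrb, read 2951 and 2934 (wildtype) and 3435 and 4012 (labelled knockout) near 500 and 1771 against 2397 near 150, so its signal was not lower under the knockout label. The other Esrrb probe sets had log2 fold changes of 0.45 and 0.19; the latter read 458 in wildtype against 442 near 150. The labels do not say which part of the gene is deleted, so these probe sets do not check them, and the group is called labelled knockout throughout. The rod markers Sag, Gnat1, Pde6b and Pdc were bright, with a lowest signal of 5537. Their sums were 176993 and 172472 in wildtype against 141312 and 157822 in labelled knockout arrays near 500 and nearly equal near 150. Over all arrays, all 4 had log2 fold changes below 0 (median -0.16), none called. By set, 0 of the 4 were higher in the labelled knockout near 500 and 3 near 150. The bipolar markers Pcp2 and Trpm1 had 0.22 and 0.66 and were higher in both sets, and Alas2 of red blood cells had -1.39, none called. The other red blood cell marker found, Hba-a1, lay below the filter on low signal. Of these 2 blood markers 0 were higher near 500 and 1, Hba-a1, was higher near 150. Near 500 and near 150, 2 and 2 of 4 cone, 4 and 2 of 4 Müller glia, 2 and 3 of 5 amacrine and ganglion cell, and 1 and 0 of 4 microglia genes were higher. The 8 lens markers, genes of a neighbouring tissue, summed to 1953 to 2454 in wildtype and 40598 to 47075 in labelled knockout arrays near 500, and to 5648 and 29696 near 150. All 8 were higher in the labelled knockout in both sets and none was at 0. All 8 were also called, with a median log2 fold change of 3.89. The 5 pigment epithelium markers were also higher in both sets, with sums of 29733 and 30176 against 33476 and 40074 near 500 and of 821 against 1462 near 150. Of these 5 markers 3 were called higher, against 1.28% of all genes. Actb, as a measure of RNA integrity, had a 3′ over 5′ ratio of 1.83 to 2.32 in wildtype and 1.66 to 1.82 in labelled knockout arrays, while that of Gapdh overlapped, at 0.712 to 0.779 and 0.719 to 0.731. The part of these tissues and cell types and of RNA integrity in the values below was not tested, and genotype and strain background cannot be told apart. In whole retina, a change in the number of cells of a type and a change in RNA per cell cannot be told apart either.

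A ribosome consists of a small subunit, 40S, which reads the mRNA, and a large subunit, 60S, which joins the amino acids. Each holds one copy of most of its proteins, so their genes are known to be expressed in step. Most of their mRNAs start with a short run of pyrimidines, the 5′ TOP element, through which the TOR kinase pathway sets their translation. Photoreceptors renew their outer segments every day and depend on steady protein synthesis.

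A run of pyrimidines at the annotated start was searched as a simple stand-in for this element. The 20 bases before the annotated start and the first 10 from it are given for 6 members, from RefSeq on GRCm38.p6, read 5′ to 3′ on the gene's strand. Capitals mark a run of at least 6 pyrimidines (C or T) that comes within 5 bases of the start. The first 4 show such a run in genes of both subunits and of the stalk, and the last 2 are the genes on which the results below turn and in which no such run was found in this window.
Rps6 (chr4:86857358-86857387, minus strand): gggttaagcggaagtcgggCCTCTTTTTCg
Rps18 (chr17:33955656-33955685, minus strand): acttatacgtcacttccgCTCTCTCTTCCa
Rpl38 (chr11:114668560-114668589, plus strand): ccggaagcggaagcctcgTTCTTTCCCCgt
Rplp2 (chr7:141447631-141447660, plus strand): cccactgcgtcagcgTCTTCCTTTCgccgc
Rpl41 (chr10:128549159-128549188, minus strand): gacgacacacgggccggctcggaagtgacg
Rplp0 (chr5:115559447-115559476, plus strand): acgtcgtcttcgggtttcgaggaccgcctg
Start sequences were found for 41 of the 47 members, with 48 annotated starts. A run of this kind stood at 22 of the 48 starts (45.8%), against 6905 of all 32851 starts in the table, 24.0% of those of mitochondrial ribosomal protein genes and 34.3% of those of proteasome subunit genes. At the other 26 member starts no such run was found, and the search does not ask whether a run begins at the first base of the mRNA.

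The letters CCGGAAG, the core that ETS family factors bind, were searched on both strands from 250 bases before to 50 after the start. They were found at 20 of the 48 starts (41.7%), against 8.86% of all starts, 34.7% of mitochondrial ribosomal protein starts and 34.3% of proteasome starts. Examples upstream of the start are given for 3 members, the member with the highest fold change and 1 of either subunit, with the motif or its reverse complement in capitals.
Rpl41 (chr10:128549198-128549244, minus strand): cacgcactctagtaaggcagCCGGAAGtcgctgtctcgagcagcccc
Rps10 (chr17:27635247-27635293, minus strand): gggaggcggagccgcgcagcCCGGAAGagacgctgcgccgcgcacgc
Rpl35 (chr2:39005232-39005278, minus strand): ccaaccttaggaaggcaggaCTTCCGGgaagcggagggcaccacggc
The letters AAGATGGC, the core bound by YY1, stood at 4 of the 48 starts (8.33%, against 2.75% of all, 8.57% of proteasome starts and 12 of the 75 mitochondrial ribosomal protein starts). The letters TNAAGGTCA, the site that ERR receptors bind as single molecules, stood at 1 of the 48, in Rps3 (2.08%, against 1.28% of all). A match describes the letters in this window and shows no binding.

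The ribosomal protein genes were slightly higher in the arrays labelled knockout as a group, while no single gene passed the test on its brightest probe set. The log2 fold change, labelled knockout minus wildtype, was above 0 in 40 of 47 members, and its median was 0.16. With quantile normalization 42 were above 0. With arrays centred on their medians 46 were, but centring adds the same amount to every gene's value. The share of all genes above 0 was then 67.9%. Over all 12536 genes tested 53.1% were above 0 and the median was 0.02. The values of members ran from -0.10 to 0.52, with quartiles of 0.08 and 0.23, so the shift was small and spread over most genes. At an adjusted p under 0.05 in limma with the set of arrays as a block, 0 of 47 members were called in either direction, while of all genes 1.28% were called higher and 1.48% lower, and of all kept probe sets 2.25% were called in either direction. At an unadjusted p under 0.05, 19 members were higher and 0 lower, against 11.5% of all genes higher and 9.84% lower. Those 19 had log2 fold changes of 0.16 to 0.52 and adjusted p from 0.0524 to 0.233.

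**Figure D1:**
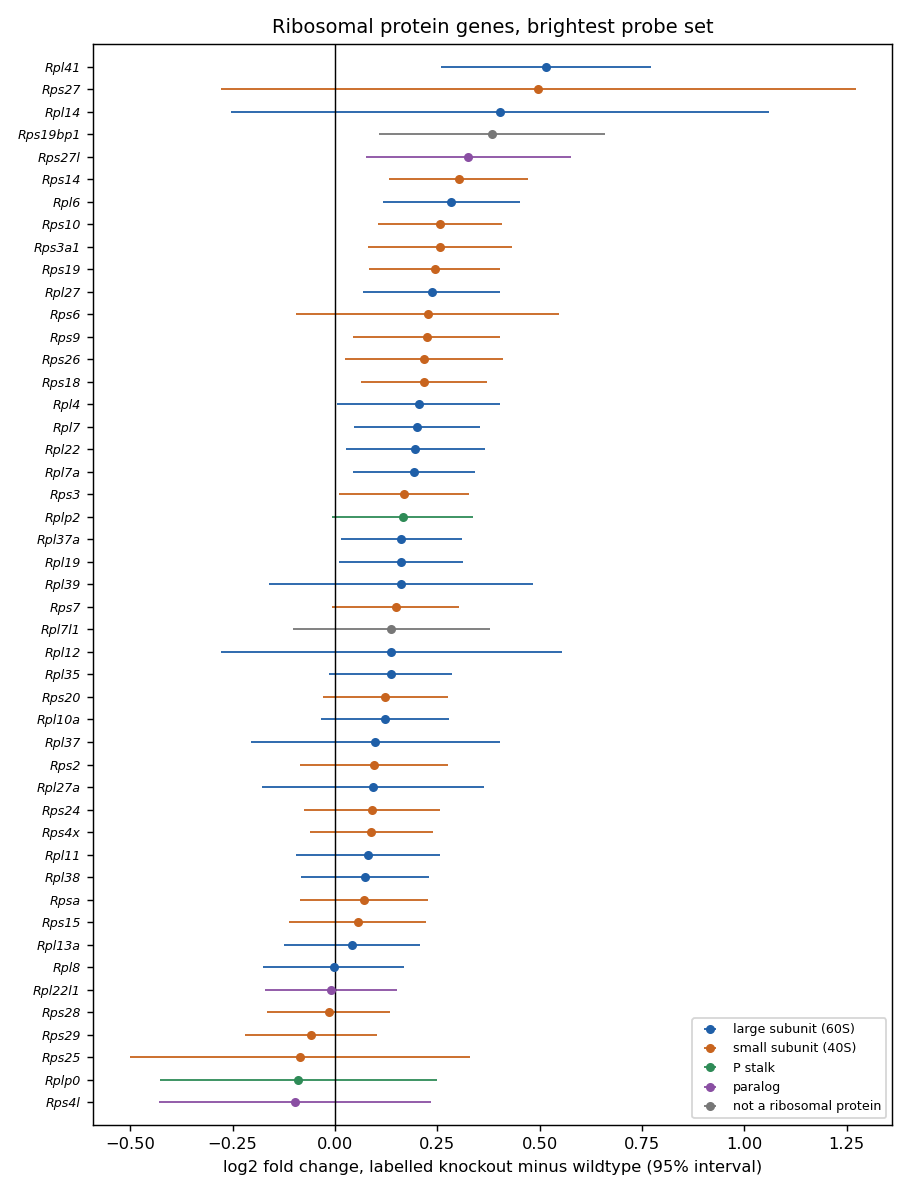
Log2 fold change (labelled knockout minus wildtype, 3 arrays per group) of the 47 members by their brightest probe set, with 95% intervals from limma with the set of arrays as a block; colours give the class of the gene. Of the points 40 lie above 0, with a median of 0.16, and 46 when arrays are centred on their medians; the values of Rps28, Rps29, Rpl22l1 and Rplp0, just below 0, are among those that turn, and those of Rps28 and Rps29 also after quantile normalization.

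The shift was seen in each array. The median signal of the 47 members was 10651 and 11018 in the wildtype arrays near 500, against 12201 and 12902 in the labelled knockout arrays, and 1214 against 1523 in the arrays near 150. Both labelled knockout arrays lay above both wildtype arrays near 500, and the single labelled knockout array lay above the wildtype array near 150. The array medians over all genes, 628 to 640 near 500, did not separate the groups; near 150 they were 183 and 191. Relative to each member's mean over arrays of the same scale, 6 and 10 members lay above that mean in wildtype replicates 1 and 2 and 33 and 41 in labelled knockout replicates 1 and 2. Near 150 it was 8 in wildtype and 39 in labelled knockout replicate 3.

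Arrays of the same group also differed, by less. The median difference over members was 0.04 (log2) between the wildtype arrays near 500 and 0.07 between the labelled knockout arrays. The 4 differences between a labelled knockout and a wildtype array near 500 ran from 0.07 to 0.21, so the smallest of them was only as large as the spread within a group. Near 150 the difference was 0.20, from 1 array per group. Taking the arrays by number, the member medians of labelled knockout minus wildtype were 0.12, 0.14 and 0.20, with an SD of 0.040 (n = 3).

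**Figure D2:**
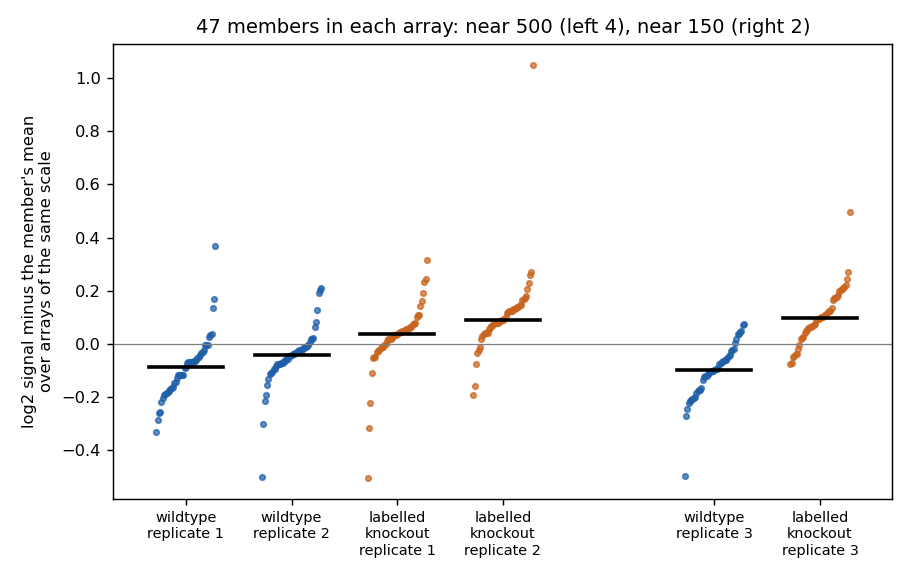
Log2 signal of each of the 47 members (points) in each array, minus that member's mean over arrays of the same scale; black bars are medians over members. The medians were -0.09 and -0.04 in wildtype against 0.04 and 0.09 in labelled knockout arrays near 500, and -0.10 against 0.10 near 150.

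For 25 of 47 members every labelled knockout array was above every wildtype array within both sets of arrays, and for 0 it was below in both. Of all genes 19.8% were separated upward in this way and 15.5% downward. Members are bright, and 35 of the 47 lay among the brightest 10% of all genes. Those brightest genes without the members had a median log2 fold change of 0.00, with 0.05 near 500 and -0.08 near 150. The 35 members among them had a median of 0.16, and the 12 dimmer members 0.15. The signal of members near 500 was a median of 7.79 times that near 150, against 3.32 times for all genes; the part of this gap in the values was not tested.

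Genes of the large subunit were higher in 19 of 20 cases, with a median log2 fold change of 0.16 (0.15 near 500 and 0.19 near 150). They were Rpl4, Rpl6, Rpl7, Rpl7a, Rpl8, Rpl10a, Rpl11, Rpl12, Rpl13a, Rpl14, Rpl19, Rpl22, Rpl27, Rpl27a, Rpl35, Rpl37, Rpl37a, Rpl38, Rpl39 and Rpl41. The exception was Rpl8, a protein near the catalytic centre, with -0.00 ± 0.077 (SE), above 0 when arrays were centred on their medians. All 20 were higher near 500, and 16 were higher near 150.

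Rpl41, which encodes a very short and basic protein of the large subunit, had the highest value of all members. Its brightest probe set read 14777 and 10473 in wildtype against 17379 and 17847 in labelled knockout arrays near 500, and 944 against 1376 near 150. The labelled knockout arrays were the higher ones in both sets, although the wildtype arrays near 500 lay apart from each other. The log2 fold change was 0.52 ± 0.11 (SE, 3 arrays per group), with an adjusted p of 0.0524 in limma. It lay at the threshold and passed under several other settings, with adjusted p over all of them from 0.0242 to 1.00, the highest in the fit without a block. Without wildtype replicate 2 its log2 fold change was 0.38 (adjusted p = 0.242 in limma). A further Rpl41 probe set read 7167 and 7203 in wildtype against 8484 and 9040 in labelled knockout arrays near 500, and 918 against 1220 near 150 (0.33 ± 0.071, adjusted p = 0.0501). Its other kept probe sets had 0.43 and 0.06.

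Rpl14, also of the large subunit, had a high value that rests on 1 dim pair of arrays. It read 153 and 185 in wildtype against 172 and 191 in labelled knockout arrays near 500, where the groups overlap, and 14.9 against 29.7 near 150. Its log2 fold change was 0.40 ± 0.29 (adjusted p = 0.473 in limma), and 0.11 near 500 alone. Probe sets shared by Rpl14 and its pseudogene Rpl14-ps1 had lower values, from 0.003 to 0.24. Rpl6, named after its value was seen, read 10484 and 11018 in wildtype against 12201 and 12767 in labelled knockout arrays near 500, and 1479 against 1979 near 150. These groups do not overlap in either set, at 0.28 ± 0.075 (adjusted p = 0.0825).

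Rpl11, Rpl13a and Rpl22, picked as large subunit members with a known role outside the ribosome, had values of 0.04 to 0.20. They are not all the members with such a role. Rpl11, which can bind and inhibit the p53 regulator Mdm2 when ribosome assembly is disturbed, had 0.08 ± 0.078, with 0.16 near 500 and -0.08 near 150. Rpl13a, which can leave the ribosome to silence inflammatory mRNAs, had 0.04 ± 0.074 on its brightest probe set, while its other 3 kept probe sets reached up to 0.35. Rpl22, an RNA-binding protein that mice can live without, had 0.20 ± 0.076 (adjusted p = 0.188), and its 3 probe sets lay between 0.17 and 0.21.

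Genes of the small subunit were higher in 17 of 20 cases, with a median log2 fold change of 0.16 (0.12 near 500 and 0.20 near 150). They were Rps2, Rps3, Rps3a1, Rps4x, Rps6, Rps7, Rps9, Rps10, Rps14, Rps15, Rps18, Rps19, Rps20, Rps24, Rps25, Rps26, Rps27, Rps28, Rps29 and Rpsa. The 3 below 0 were Rps25, Rps28 and Rps29, and of these Rps28 and Rps29 were below 0 in both sets of arrays. With quantile normalization 19 of the 20 were above 0, and with arrays centred on their medians all 20 were.

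Rps14 and Rps10, both named after their values were seen, were among the highest of the small subunit with bright signals. Rps14, a protein of the subunit's platform, read 21118 and 22512 in wildtype against 24875 and 28166 in labelled knockout arrays near 500, and 1845 against 2348 near 150. The log2 fold change was 0.30 ± 0.075 (adjusted p = 0.0707 in limma). Rps10, mutated in some patients with Diamond-Blackfan anaemia, read 14818 and 15628 in wildtype against 17864 and 18679 in labelled knockout arrays near 500, and 1929 against 2285 near 150 (0.26 ± 0.067, adjusted p = 0.0817). In both genes the groups were separated in both sets of arrays.

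Rps19, the gene most often mutated in Diamond-Blackfan anaemia, read 4978 and 5301 in wildtype against 5996 and 6057 in labelled knockout arrays near 500, and 658 against 794 near 150. The groups do not overlap, at 0.24 ± 0.071 (adjusted p = 0.106 in limma). Rps3, which lines the mRNA entry channel and also repairs DNA, had 0.17 ± 0.070 (adjusted p = 0.220). Its 2 dimmer probe sets had -0.03 and -0.07.

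Rps6, the target of the S6 kinases, was measured by a dim probe set of its own symbol. It read 404 and 407 in wildtype against 500 and 514 in labelled knockout arrays near 500, a clear gap, and 76.8 against 78.7 near 150, where the values nearly met. The log2 fold change was 0.23 ± 0.14 (adjusted p = 0.408 in limma). The 8 probe sets annotated to both Rps6 and its pseudogene Rps6-ps4 had 0.18 to 0.70, and 1 of them passed (0.43 ± 0.076, adjusted p = 0.0245), but they cannot be assigned to Rps6 alone. Rps27 had the highest value of the small subunit, 0.50 ± 0.35, which came from 1 array: it read 179 and 193 in wildtype against 158 and 465 in labelled knockout arrays near 500, and 55.2 against 72.8 near 150. Without labelled knockout replicate 2 its log2 fold change was 0.04, and without labelled knockout replicate 1 it was 0.93. A probe set shared by Rps27 and Rps27rt had 0.01 ± 0.068, so the rank of Rps27 rests on its dim probe set.

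The 2 members below 0 in both sets of arrays, Rps28 and Rps29, had bright signals. Rps29 read 37470 and 37112 in wildtype against 33942 and 38128 in labelled knockout arrays near 500, and 4756 against 4524 near 150 (-0.06 ± 0.072, 95% interval -0.22 to 0.10). Rps28 had -0.02 ± 0.067 (95% interval -0.17 to 0.13), and its 3 probe sets lay between -0.02 and 0.01. Both values turned positive after quantile normalization, to 0.05 for Rps29 and 0.03 for Rps28, and with arrays centred on their medians, to 0.04 and 0.08. Rps25, named after its value was seen, had a dim signal and -0.09 ± 0.18, with groups that overlap near 500. A probe set shared by Rps25 and other symbols had the opposite sign, at 0.23 ± 0.083. Rps4x, the X-linked copy of the S4 gene, had 0.09 ± 0.067, Rpl38 of the large subunit 0.07 ± 0.070, and Rpsa, also known as the laminin receptor precursor, 0.07 ± 0.069. The interval of Rpsa ran from -0.08 to 0.23 and so still holds the median of the members.

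The stalk of the large subunit, which recruits the elongation factors, was represented by Rplp0 and Rplp2. Rplp2 read 14404 and 14394 in wildtype against 14767 and 15770 in labelled knockout arrays near 500, and 1214 against 1523 near 150, at 0.17 ± 0.077 (adjusted p = 0.267 in limma). Rplp0, the scaffold on which the other stalk proteins sit and a frequent reference gene in quantitative PCR, moved in opposite directions. It read 8988 and 9261 in wildtype against 6851 and 7163 in labelled knockout arrays near 500, where the labelled knockout arrays were the lower ones. Near 150 it read 634 in wildtype and 892 in labelled knockout, which was the higher one.

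The log2 fold changes of Rplp0 were -0.38 near 500 and 0.49 near 150, a difference of -0.87 ± 0.12 (SE), with an adjusted p of 0.0111 for the interaction in limma. Near 150 there is 1 array per group, so this error rests on the spread among the 4 arrays near 500 (2 residual degrees of freedom), moderated over all probe sets, and the test takes the arrays near 150 to vary alike, which has no replicate check. Rplp0 was the single member of 47 with an adjusted p under 0.05 here, against 1.17% of all genes. At an unadjusted p under 0.05 it was 5 members, against 15.8% of all genes. Over all arrays Rplp0 had -0.09 ± 0.15, a mean of opposite values from which no direction is read. A single probe set was kept for Rplp0. The gene did not follow the other members in the arrays near 500, where 40 of 47 were higher.

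**Figure D3:**
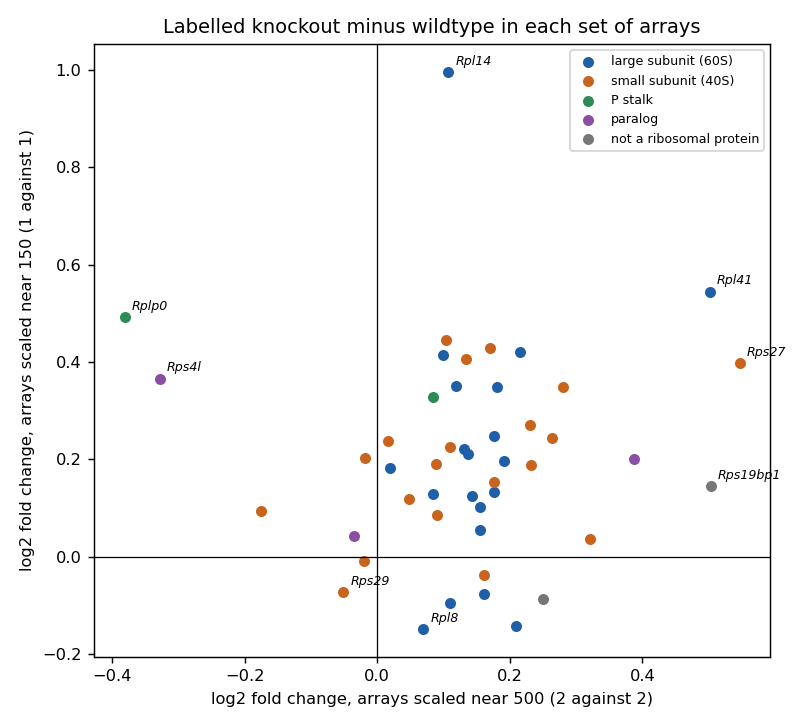
Log2 fold change (labelled knockout minus wildtype) of each of the 47 members in the arrays scaled near 500 (x axis, 2 against 2 arrays) and near 150 (y axis, 1 against 1), coloured by class. Of the points 34 lie above 0 on both axes, 2 below 0 on both and 11 differ in sign; Rplp0, at -0.38 and 0.49, stands apart at the upper left.

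Across the 47 members Pearson's r between the log2 fold changes near 500 and near 150 was 0.03, against 0.27 across all genes. Members share their arrays and scale and are not independent, so this is a description, and near 150 there is 1 array per group. The r includes Rplp0, at -0.38 and 0.49, and Rps4l, at -0.33 and 0.37. These were the lowest members near 500 and lay above 0 near 150. As r was not computed without them, it does not show whether the remaining members had a common order. The spread among members was narrow, with an SD of 0.14 against 0.35 over all genes, and the median standard error of a member was 0.075.

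The rule also takes in 3 paralogs, with values from -0.10 to 0.33. Rps27l, a close copy of Rps27 that p53 can induce, read 987 and 1076 in wildtype against 1468 and 1239 in labelled knockout arrays near 500, and 154 against 177 near 150, with the labelled knockout higher in both sets. Its log2 fold change was 0.33 ± 0.11 (adjusted p = 0.148 in limma). A dimmer probe set of Rps27l read 793 and 876 in wildtype against 1319 and 1267 in labelled knockout arrays near 500, and 119 against 177 near 150, and passed with 0.61 ± 0.10 (adjusted p = 0.0218). The third had 0.40.

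Rpl22l1, the paralog of Rpl22, read 5461 and 5836 in wildtype against 5529 and 5495 in labelled knockout arrays near 500, and 789 against 813 near 150. These groups overlap, and the log2 fold change was -0.01 ± 0.072 (95% interval -0.17 to 0.15), or 0.09 with arrays centred on their medians. Rps4l, an autosomal copy of Rps4x, had -0.33 near 500 and 0.37 near 150, a difference that did not pass (adjusted p = 0.134 for the interaction in limma). It read 2114 and 2199 in wildtype against 1544 and 1910 in labelled knockout arrays near 500, and 186 against 239 near 150, the same pattern of order as Rplp0.

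The names of 2 members follow the rule though they encode no ribosomal protein. Rps19bp1, which binds Rps19 and the deacetylase Sirt1, read 672 and 628 in wildtype against 915 and 926 in labelled knockout arrays near 500, and 114 against 126 near 150 (0.38 ± 0.12, adjusted p = 0.131 in limma). Its value was 0.50 near 500 and 0.14 near 150. Rpl7l1, a factor of large subunit assembly related to Rpl7, had 0.14 ± 0.11 on its brightest probe set. A dimmer one read 985 and 987 in wildtype against 1491 and 1319 in labelled knockout arrays near 500, and 148 against 208 near 150, and passed with 0.50 ± 0.099 (adjusted p = 0.0365). Without paralogs and these 2 genes the median of the remaining 42 members was 0.16.

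The 4 members below the filter had signals too low to compare. Rps16, whose protein is part of every small subunit, read only 0.467 to 5.24 on its single probe set of that symbol. The other signals were 18.1 to 54.7 for Rpl39l, an isoform known from testis, 2.90 to 53.1 for Rpl3l, the striated muscle form of Rpl3, and 5.45 to 56.2 for the pseudogene Rps15a-ps6.

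Other probe sets of the members gave an additional view of the same RNA. Of the 20 genes with more than 1 kept probe set, 13 had only values above 0, none had only values below 0, and 7 had both. Over all 94 kept probe sets of members the median log2 fold change was 0.17, and 5 passed as higher and 0 as lower, while of all 27022 kept probe sets 1.04% were called higher and 1.22% lower. At an unadjusted p under 0.05, 44 of the 94 were higher and 0 lower, against 9.33% of all kept probe sets higher and 11.1% lower.

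The 5 that passed belonged to Rpl7, Rps10, Rpl7l1 and Rps27l. For Rpl7, a large subunit protein that binds RNA, the dimmest of 3 probe sets read 6989 and 6667 in wildtype against 11551 and 10689 in labelled knockout arrays near 500, and 695 against 1211 near 150. It had 0.74 ± 0.072 (adjusted p = 0.00137 in limma), the lowest adjusted p among members, and was the only one of the 5 to pass with a replicate block (adjusted p = 0.00648). The brighter Rpl7 probe sets had 0.31 and 0.20 and did not pass, so the probe sets of this gene disagree in size by more than their errors. Rps10 had 2 probe sets that passed, with 0.42 ± 0.076 and 0.41 ± 0.076 (adjusted p = 0.0286 and 0.0301), and a dim one with -0.41 ± 0.32. Both calls were lost after quantile normalization (adjusted p = 0.0574 and 0.0714) and with arrays centred on their medians (0.0551 and 0.0624), and that of Rpl7l1 was lost when centred (0.0561). Rps9 had 0.22 ± 0.080 on its brightest and -0.24 ± 0.11 on its next probe set, neither past the test.

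**Figure D4:**
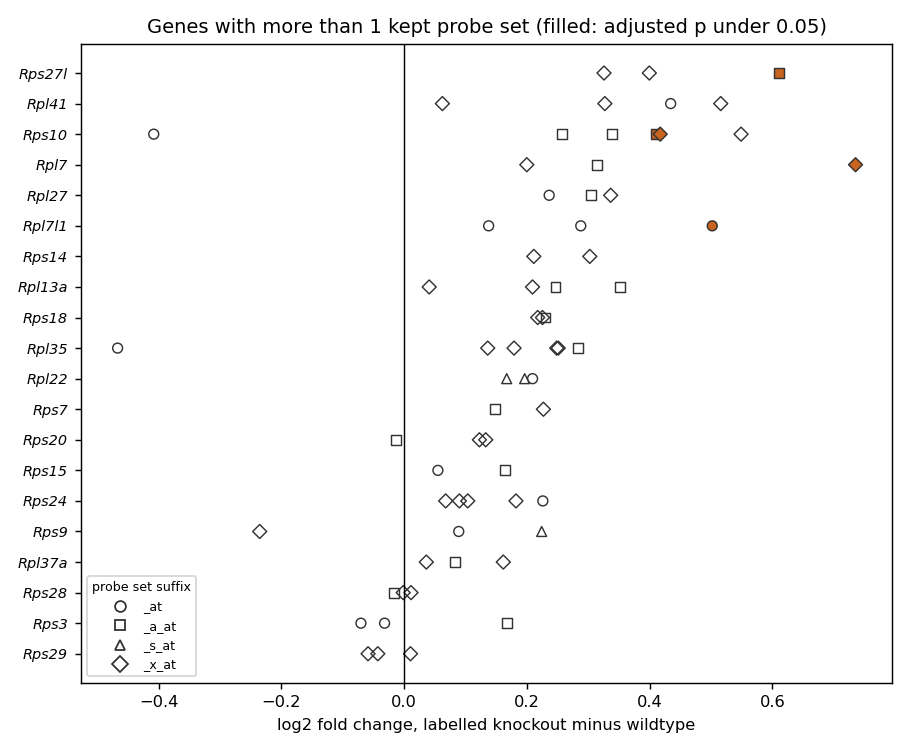
Log2 fold change (labelled knockout minus wildtype) of every kept probe set of the 20 genes that have more than 1; the shape gives the suffix of the probe set, and filled symbols have an adjusted p under 0.05. The 5 filled symbols, of Rps27l, Rps10, Rpl7 and Rpl7l1, lie between 0.41 and 0.74.

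Ribosomal protein genes have many processed pseudogenes, and the suffix of a probe set says how many transcripts its probes can match. The median was 0.14 for the 25 member probe sets with the plain suffix _at, 0.21 for the 28 with _a_at, which match variants of 1 gene, and 0.17 for the 38 with _x_at, which can match unrelated transcripts. Over all kept probe sets these medians were -0.05, 0.07 and 0.05, so in each class the members lay higher. The probe sets shared between a ribosomal protein symbol and other symbols numbered 101 after the filter. Their median was 0.16, and 91 were above 0, against 47.6% of all kept probe sets. As higher 3 passed and as lower 0, against 1.04% and 1.22% of all kept probe sets. With a replicate block 0 of the 101 passed.

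Members with and without the start site elements had similar medians. The 22 members with a pyrimidine run at a start had a median log2 fold change of 0.18 and the 19 without it 0.15. With and without the ETS core the medians were 0.16 and 0.16, over 20 and 21 members.

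Genes that work beside the ribosomal proteins were described in the same way, where 1.28% of all genes were called higher and 1.48% lower. Of 25 initiation factor genes 22 were above 0, with a median of 0.11, and 2 passed: Eif2b3, a subunit of the exchange factor for eIF2, with 0.60 ± 0.11 (adjusted p = 0.0301 in limma), and Eif4e, the cap-binding protein, with 0.38 ± 0.080 (adjusted p = 0.0437). Eif4e read 3689 and 3977 in wildtype against 5024 and 5411 in labelled knockout arrays near 500, and 939 against 1124 near 150, without overlap. A broad list of elongation factors and other genes with TOP mRNAs also held the kinase gene Eef2k and Eef1e1. Its median was 0.07, with 12 of 19 above 0 and none called. At an unadjusted p under 0.05, 3 were higher and 1 lower (over all genes 11.5% and 9.84%). Within this list Eef1a1, the most abundant elongation factor, had 0.08 ± 0.078 and Eef2 0.04 ± 0.082. Fau, whose product is processed into a ubiquitin-like protein and the S30 protein of the small subunit, had 0.18 ± 0.084 (adjusted p = 0.260 in limma). It belongs to a list of 5 tested ubiquitin fusion and ribosome-associated genes, none of them called. In that list 3 were above 0 and 2 were below 0 in both sets of arrays, with a lowest value of -0.36. At an unadjusted p under 0.05 in limma, 1 of the 5 was higher and 1 lower.

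Of 61 ribosome biogenesis genes 36 were above 0, with a median of 0.04. Over all genes 1.28% were called higher and 1.48% lower. Among the 61 only Rrp1b, a nucleolar protein, passed. It fell, from 2137 and 2022 in wildtype to 1250 and 1222 in labelled knockout arrays near 500 and from 952 to 741 near 150 (-0.62 ± 0.099, adjusted p = 0.0179 in limma). Of 18 genes in a list for RNA polymerase I, which transcribes ribosomal RNA, Polr1d passed as higher (0.54 ± 0.11, adjusted p = 0.0449 in limma). The median was 0.16, with 0.20 near 500 and -0.02 near 150. This list also holds subunits shared with other RNA polymerases, Polr1d and Polr2e among them, and factors such as Ubtf. Of 31 genes in a broad list for the TOR pathway none passed, and the median was 0.04. At an unadjusted p under 0.05, 2 were higher and 6 lower (over all genes 11.5% and 9.84%). The list also holds Pdk1, which encodes a pyruvate dehydrogenase kinase, and kinase genes such as Rps6ka3, so these counts are not of TOR genes alone. With a replicate block none of Eif2b3, Eif4e, Rrp1b and Polr1d passed (adjusted p = 0.0774, 0.0953, 0.0566 and 0.102), and with arrays centred on their medians none did either (0.0531, 0.108, 0.0521 and 0.0920).

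Other large complexes lay as high. Mitochondrial ribosomal protein genes, which serve translation inside mitochondria, were above 0 in 73 of 76 cases with a median of 0.21 (0.23 near 500 and 0.16 near 150). Proteasome subunit genes were above 0 in 35 of 36 cases with a median of 0.19 (0.23 and 0.13), and 1 of them, the base subunit Psmc5, passed (0.48 ± 0.083, adjusted p = 0.0233 in limma, 0.0713 with a replicate block). Separation upward in both sets of arrays was seen in 25 of 47 cytosolic ribosomal protein, 41 of 76 mitochondrial ribosomal protein and 21 of 36 proteasome genes. Of all genes 19.8% were separated upward, and 1.28% were called higher and 1.48% lower. These groups were set side by side, and no difference between them was tested.

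**Figure D5:**
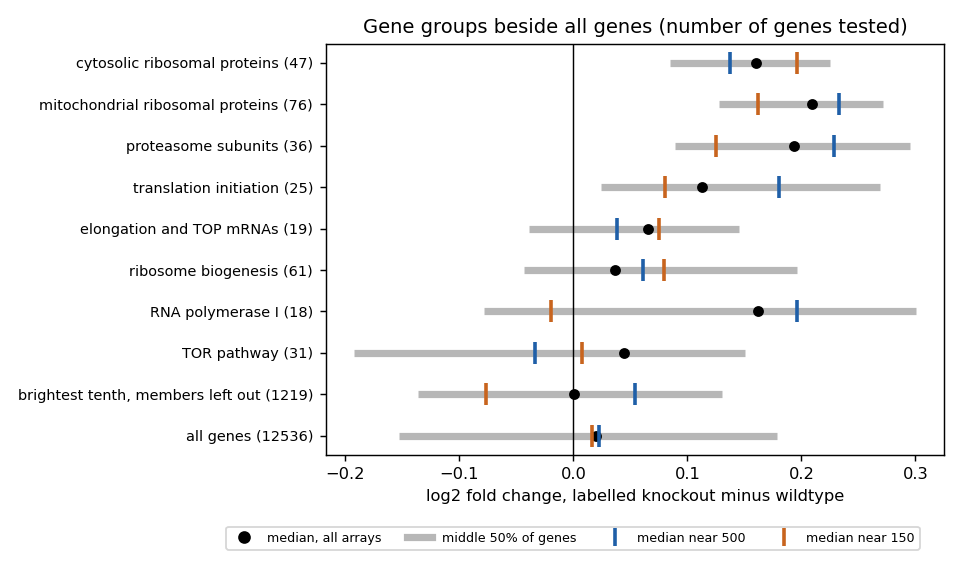
Median log2 fold change (labelled knockout minus wildtype; black points) and middle 50% of genes (grey bars) for 8 gene groups, the brightest 10% of genes and all genes tested, with the number of genes in brackets; coloured ticks are the medians in the arrays near 500 and near 150. The cytosolic ribosomal protein, mitochondrial ribosomal protein and proteasome groups have medians of 0.16, 0.21 and 0.19, against 0.02 for all genes.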

How the data were processed

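The deposited table holds intensities on a linear scale, 1 per probe set and array, which the authors made with GCOS 1.4 and MAS5, per the submitters' processing notes; what each tool did is not stated there. It held 45101 probe sets, of which 64 controls were left out. Arrays carry no read depth, and their number, 3 per group, limits the precision. The log2 of the deposited signals was used without renormalizing. Probe sets with a mean log2 signal at or above the 40th percentile (geometric mean 54.5) were kept. Groups were tested in limma 3.58.1 (R 4.3.3; variance trend, two-sided, set of arrays as a block, Benjamini-Hochberg over the 27022 kept probe sets, threshold 0.05), a fit tested on simulated data. Gene names came from the platform's annotation of 2016 and sequences from RefSeq. Members and lists were chosen with earlier results of these data known. Members named by rule are the 5 highest and 5 lowest of equal sign in both sets, and any called. Those with a called difference between the sets and a list of textbook members and paralogs were named too. Outside this rule, Rpl6, Rps10, Rps14 and Rps25 are marked in the text. Rpl7, Rpl8 and Rps9 were also named after their values were seen. Deviations from group means correlated at 0.570, 0.670 and 0.843 for replicates numbered 1, 2 and 3, above the 0.1 of the rule used. These deviations hold the scale difference between the sets of arrays, which the numbers share in both groups. The correlations therefore cannot show that the numbers pair samples within a set. Alternatives were other scalings, filters, blocks, probe set rules and leaving out each array.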

Additional observations from a re-analysis of the deposited data

Results flagged for a closer look

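The log2 fold change of Rplp0 differed between the 2 sets of arrays by -0.87 ± 0.12 (adjusted p = 0.0111 for the interaction in limma): it was lower in both labelled knockout arrays near 500 (-0.38) and higher in the one near 150 (0.49). Near 150 there is 1 array per group, so the error comes from the arrays near 500, moderated over all probe sets, and the difference has no replicate check near 150.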

How the results depend on the processing

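The median log2 fold change of the members was above 0 under every setting tried. It ranged from 0.14 (without wildtype replicate 1) to 0.19 (without wildtype replicate 2) with 1 array left out, and was 0.26 with each array centred on its median, where the median of all genes rose to 0.12 from 0.02, and calls over all genes were 97 higher and 56 lower in place of 160 and 185. The replicate block left it at 0.16 and called 0 members. Beside each count of members called higher stands the share of all genes called higher under the same setting: 2 with quantile normalization (1.13%), 2 with a filter at the 60th percentile (2.60%), 2 with the mean of a gene's probe sets (1.82%), 1 with 16 added to each signal (1.34%), 1 without probe sets of suffix x or s (1.33%), 6 in the arrays near 500 alone (7.48%), and 5 of 94 when every probe set was counted (1.04% of probe sets), a choice made after seeing the data. The count called lower was 1, Rplp0, in the arrays near 500 alone (6.83%). With 1 array left out 0 to 4 were called higher and 0 to 1 lower, the most without wildtype or labelled knockout replicate 3 (7.04% and 6.98% of all genes higher). Values near 0 changed sign. With arrays centred, Rplp0 became 0.0056, Rpl22l1 0.087, Rps28 0.080 and Rps29 0.037, and with quantile normalization Rps28 became 0.033 and Rps29 0.049. With 1 array left out, Rplp0 ranged from -0.38 to 0.011, Rpl22l1 from -0.035 to 0.026, Rps28 from -0.038 to 0.0083, Rps4l from -0.33 to 0.057 and Rpl13a from -0.0045 to 0.11. Centring adds the same amount to the log2 fold change of every gene, so values just below 0 turn positive by arithmetic. The cause of the other changes was not tested. Over all genes, the replicate block called 62 higher and 54 lower, and no block called 0 (40 genes at an unadjusted p under 0.05 in limma), as that fit carries the scale difference in its error. The values near 150 have 1 array per group and no replicate check, and dim probe sets such as those of Rps27 and Rpl14 rest on single arrays.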
